A study of Arabidopsis thaliana with 36 samples.

Results

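The auxin response genes described here are 10 loci, found by identifier among the 33557 genes of the deposited root expression table. They are 5 Aux/IAA repressor genes, IAA1 (AT4G14560), IAA2 (AT3G23030), SHY2 (AT1G04240, also called IAA3), IAA14 (AT4G14550) and IAA19 (AT3G15540). They also include the auxin response factor genes ARF7 (AT5G20730) and ARF19 (AT1G19220), and 3 genes of auxin-conjugating enzymes, GH3.3 (AT2G23170), GH3.5 (AT4G27260) and GH3.6 (AT5G54510). All 10 were present and passed the filter on low values, which kept 20411 genes that reached 1 RPKM in 3 or more of the 12 libraries.

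Auxin acts by bringing an Aux/IAA protein to a receptor of the TIR1/AFB family, after which the Aux/IAA protein is degraded. Its loss frees ARF proteins, which bind the promoters of auxin target genes. Many Aux/IAA and GH3 genes are themselves induced by auxin, so that they act both as readouts of the response and as brakes on it. Aux/IAA proteins restrain the ARFs, and GH3 enzymes join auxin to amino acids, which lowers the free hormone. In the root this circuit controls lateral root formation, meristem size and root hair growth, which also change when phosphate is scarce.

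RNA came from *Arabidopsis thaliana* roots harvested 14 days after germination, with 3 libraries in each of 4 groups. The groups were the wild type (WT) on control medium, WT on medium low in phosphate (Pi), the *otu5* mutant on control medium and *otu5* on low Pi. The mutant lacks normal function of OTU5, a deubiquitinating enzyme, and the labels give neither its allele nor the Pi concentrations. The study asked how OTU5 bears on root development and on the response of roots to Pi shortage. All plants grew under continuous light, and the groups were taken from the library titles. In 6 of the 12 libraries the culture condition label went against the title, since it tracked genotype. Nothing in the labels says whether replicates came from separate plants, so the p-values rest on a spread between samples that may be technical.

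OTU5 transcript (AT3G62940) lay between 38.9 and 43.1 RPKM in the 6 WT libraries and between 0.432 and 1.71 RPKM in the 6 *otu5* libraries. RPKM is a read count scaled to gene length and to the mapped reads of the library. Deposited values summed to between 993382 and 1330830 per library, the highest being WT control replicate 3. Relative depth, read from the commonest ratio of values under 0.3 RPKM, lay between 0.671 and 1. All 8 root marker genes were above 0 in every library, with summed levels of 4025 to 5492 RPKM. The protocol text names rosette leaves for RNA isolation, and all 6 green shoot markers were also above 0 in every library. Their summed level was 468 to 557 RPKM in WT control, 353 to 449 in WT low Pi, 595 to 655 in *otu5* control and 432 to 446 in *otu5* low Pi. RBCS1A made up most of the shoot sum and PYK10 nearly all of the root sum. The shoot sum was highest in *otu5* control, without overlap with WT control, and the genotypes overlapped on low Pi. Singly, 5 of the 6 shoot markers were higher in *otu5* than in WT on each medium, PSAD-1 being the exception on both, with median log2 differences of 0.40 on control medium and 0.33 on low Pi.

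The members differed widely in level, and since RPKM is scaled to gene length these levels can be set side by side. In WT control roots IAA2 was the highest, at 207 ± 15.8 RPKM (SD, n = 3). IAA14 (34.9 ± 3.31), SHY2 (30.1 ± 1.47) and ARF7 (21.9 ± 0.472 RPKM) followed. IAA1 (18.8 ± 2.12 RPKM) and GH3.5 (17.9 ± 1.15 RPKM) came next, and their library ranges overlapped, so their order is not resolved. GH3.6 was at 14.7 ± 0.826 RPKM, ARF19 at 13.0 ± 0.522 RPKM and IAA19 at 9.03 ± 0.963 RPKM. GH3.3 was by far the lowest, at 0.791 ± 0.124 RPKM, and no other neighbours in this order overlapped. In *otu5* control roots IAA2, IAA14, ARF19, IAA19 and GH3.3 kept their ranks, but IAA1, GH3.5, ARF7, SHY2 and GH3.6 overlapped each with the next, from 22.9 down to 19.9 RPKM. SHY2 was the third in both WT groups, sixth in *otu5* control and seventh in *otu5* low Pi.

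Set within their families, the members were not the most abundant genes. IAA2 was the third of 29 Aux/IAA genes in WT control roots, after IAA9 (419 RPKM) and IAA28 (211 RPKM). IAA14, SHY2, IAA1 and IAA19 ranked 12, 13, 15 and 18. ARF7 and ARF19 ranked 6 and 11 of 15 ARF genes, led by ARF2 (70.8 RPKM). GH3.5 and GH3.6 ranked 2 and 3 of 8 auxin-conjugating GH3 genes, after GH3.17 (86.8 RPKM), and GH3.3 ranked 7. The sources used here do not say how reads were shared between related genes, so the split of signal among family members is uncertain.

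**Figure D1:**
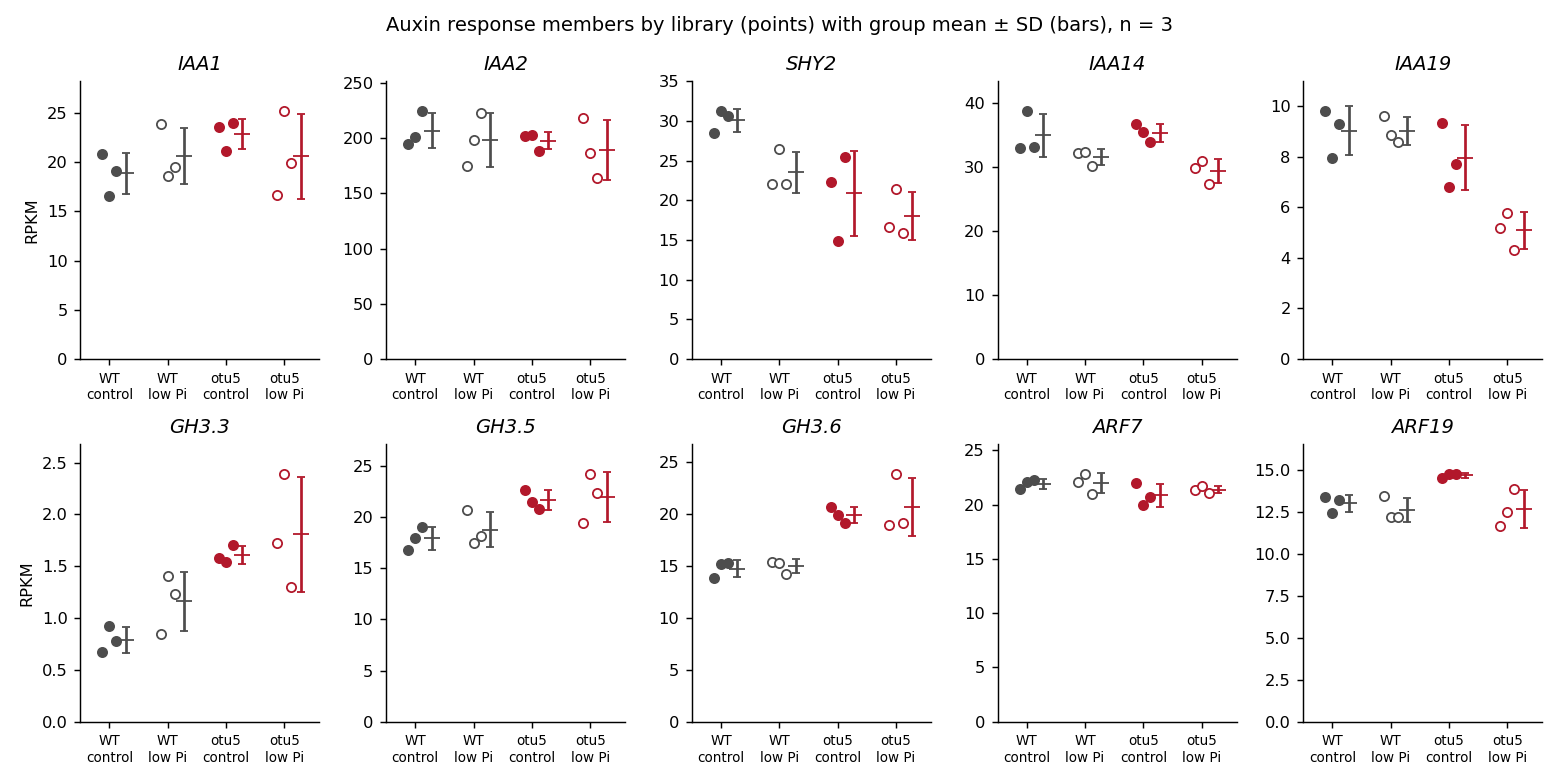
Deposited RPKM of each auxin response gene (y axis, from 0) in the 12 libraries, grouped on the x axis by genotype and medium; points are libraries and bars are the group mean ± SD (n = 3). GH3.6 lies at 13.8 to 15.4 RPKM in WT and 18.9 to 23.9 RPKM in otu5, and IAA19 lies at 4.31 to 5.79 RPKM in otu5 on low Pi, below the other 9 libraries.

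Differences were tested with limma on log2(RPKM + 0.5), fitted over all 20411 genes and adjusted by the Benjamini-Hochberg method, with a call at an adjusted p under 0.05. Fold changes on this scale understate the change of low genes such as GH3.3. The *otu5* mutant differed from WT in 2 of the 10 members on control medium, GH3.3 and GH3.6, both higher. Over all genes 10.4% were called in this comparison and 4.85% were called higher. On low Pi 2 members differed, GH3.6 higher and IAA19 lower, where 9.91% of all genes were called, 4.00% higher and 5.91% lower. Low Pi changed 0 members in WT, where 4.29% of all genes were called, and 2 members in *otu5*, IAA14 and IAA19, both lower, where 8.59% were called and 3.78% were lower. In these bulk samples fewer cells of a type and less RNA per cell cannot be told apart.

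Members whose library values did not overlap between groups numbered 6 of 10 for *otu5* against WT on control medium (33.2% of all genes) and 3 of 10 on low Pi (29.1%). For low Pi against control there were 2 of 10 in WT (25.3%) and 3 of 10 in *otu5* (28.4%). The share was above that of all genes for the genotypes on control medium and near it in the other comparisons. The 4 comparisons share libraries in pairs, so a group that stands apart moves both comparisons that hold it. The median log2 difference of the members was 0.10 for *otu5* against WT on control medium, -0.03 on low Pi, 0.0026 for low Pi in WT and -0.12 for low Pi in *otu5*. The medians over all genes tested were 0.0035, 0.0056, -0.0054 and -0.011.

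Of the 3 GH3 enzyme genes 2 were higher in *otu5* on control medium (4.85% of all genes) and 1 on low Pi (4.00%). Of the 2, GH3.3 passed the filter on low values only with its *otu5* libraries. GH3.6, which encodes an enzyme that joins auxin to amino acids, was at 13.8, 15.2 and 15.2 RPKM in the WT control libraries and 20.6, 19.8 and 19.1 RPKM in those of *otu5*. On low Pi it was at 15.4, 15.3 and 14.2 RPKM in WT and 18.9, 23.9 and 19.1 RPKM in *otu5*. All 6 *otu5* libraries were above all 6 WT libraries. The log2 difference was 0.42 on control medium (SE 0.09, limma adjusted p = 0.015), which is 1.34-fold, and 0.44 on low Pi (SE 0.09, adjusted p = 0.011), which is 1.36-fold. The control call was lost without WT control replicate 1 (log2 difference 0.37, adjusted p = 0.051), and the low Pi call in a fit of only the 6 low Pi libraries (0.44, adjusted p = 0.069).

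GH3.3, which encodes an enzyme of the same kind, was much lower in level. It was under 1 RPKM in every WT control library and passed the filter only with its *otu5* libraries, where it was higher. Its WT control libraries held 0.674, 0.920 and 0.779 RPKM and those of *otu5* 1.58, 1.54 and 1.70 RPKM, without overlap. The *otu5* control mean was 203% of the WT control mean, and the log2 difference was 0.71 (SE 0.19, adjusted p = 0.039). Leaving out any 1 of the 6 libraries ended that call (log2 differences 0.64 to 0.78, adjusted p from 0.057 to 0.12), as did quantile normalization (0.053). On low Pi GH3.3 was at 0.849, 1.40 and 1.23 RPKM in WT and 1.72, 2.40 and 1.3 RPKM in *otu5*, which overlapped. The log2 difference there was 0.46 (95% interval 0.04 to 0.88, adjusted p = 0.15).

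GH3.5, whose enzyme acts on auxin and on salicylic acid, did not pass in either medium. It ranged from 16.8 to 19.1 RPKM in WT control and from 20.8 to 22.7 RPKM in *otu5* control, without overlap, with a log2 difference of 0.27 (95% interval 0.07 to 0.46, adjusted p = 0.081). On low Pi its ranges, 17.4 to 20.7 RPKM in WT and 19.4 to 24.3 RPKM in *otu5*, overlapped (log2 difference 0.22, 95% interval 0.03 to 0.42, adjusted p = 0.14). GH3.5 passed on control medium in a fit of only those 6 libraries (adjusted p = 0.048). None of the 3 GH3 genes passed for low Pi in either genotype, with log2 differences of 0.02 to 0.35 in WT and 0.02 to 0.10 in *otu5*.

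Like these GH3 genes, 5 of the 6 shoot markers were higher in *otu5* than in WT on both media, with RCA and GAPB called on each. Over all genes 4.85% were called higher on control medium and 4.00% on low Pi. The part of the shoot markers in the GH3 differences was not tested.

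**Figure D2:**
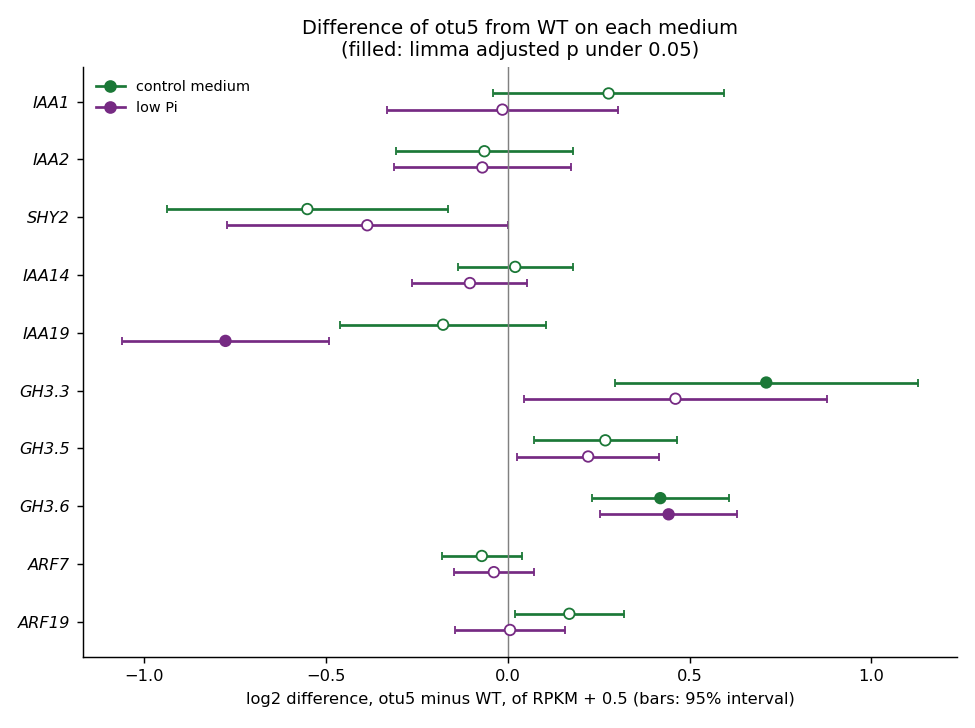
The x axis gives the log2 difference of otu5 minus WT (RPKM + 0.5) for each member on the y axis, with green for control medium and purple for low Pi; bars are 95% intervals from limma and filled points had an adjusted p under 0.05. The GH3 points all lie to the right of 0, and IAA19 on low Pi, at -0.78, lies farthest to the left.

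Of the 5 Aux/IAA repressor genes IAA19 differed most in the 2 comparisons that hold the *otu5* low Pi libraries, and SHY2 in the other 2. IAA19 protein is known to bind ARF7 and to restrain tropic bending of the hypocotyl. It was at 9.82, 7.96 and 9.32 RPKM in WT control and 9.63, 8.88 and 8.58 RPKM in WT low Pi. In *otu5* it was at 9.35, 6.82 and 7.72 RPKM on control medium and 5.18, 5.79 and 4.31 RPKM on low Pi. All 3 *otu5* low Pi libraries were below the other 9. On low Pi the *otu5* level was lower than that of WT by a log2 difference of -0.78 (SE 0.13, adjusted p = 0.0056), a call that held in all 15 alternatives (adjusted p from 9e-04 to 0.034). The summed root markers, nearly all PYK10, were also lowest in *otu5* low Pi, at 4025 to 4231 RPKM against 4499 to 4677 RPKM in WT low Pi. Singly, 4 of the 8 were higher and 4 lower than in WT low Pi, with a median log2 difference of -0.06. Only the endodermal gene CASP1 was called (-0.48, adjusted p = 0.013), where 9.91% of all genes were called. The part of these markers in the IAA19 difference was not tested.

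Within *otu5* the IAA19 difference of low Pi from control was -0.60 (SE 0.13, adjusted p = 0.020), and it rests on the same 3 low Pi libraries. It was no longer called without *otu5* control replicate 1 or 3 (adjusted p = 0.058 and 0.068), without *otu5* low Pi replicate 1 (0.058) and in a fit of only these 6 libraries (0.075). In WT the low Pi difference was 0.0028 (95% interval -0.28 to 0.29). On control medium *otu5* and WT overlapped (log2 difference -0.18, 95% interval -0.46 to 0.11, adjusted p = 0.41). That value ranged from -0.29 to -0.08 with 1 library left out, and passed with estimated library weights (adjusted p = 0.044).

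IAA14, whose stabilised mutant form blocks lateral root initiation, fell with low Pi in *otu5*. It was at 36.6, 35.4 and 33.9 RPKM on control medium and 29.8, 30.9 and 27.2 RPKM on low Pi, without overlap. The log2 difference was -0.27 (SE 0.07, adjusted p = 0.045). The call was lost without each of these 6 libraries (log2 differences -0.30 to -0.21, adjusted p from 0.069 to 0.12), in a fit of only these libraries (0.071), with no filter (0.058) and without trend and robust estimation (0.061). In WT it was at 32.9, 38.7 and 33.1 RPKM on control medium and 32.1, 32.4 and 30.1 RPKM on low Pi, also without overlap, with a log2 difference of -0.14 (95% interval -0.30 to 0.02, adjusted p = 0.31). The genotypes differed by 0.02 on control medium and by -0.10 on low Pi, with adjusted p values of 0.89 and 0.39.

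SHY2, a repressor known for setting the balance of division and differentiation in the root meristem, did not pass in any comparison of the fit reported. Its values were 28.4, 31.3 and 30.5 RPKM in WT control and 22.1, 26.5 and 22.0 RPKM in WT low Pi. In *otu5* they were 22.2, 14.9 and 25.4 RPKM on control medium and 16.7, 21.4 and 15.8 RPKM on low Pi. The WT control libraries were above all 9 others, and *otu5* control replicate 2 was the lowest of the 12. The log2 difference of *otu5* from WT was -0.55 on control medium (95% interval -0.94 to -0.16, adjusted p = 0.071) and -0.39 on low Pi (adjusted p = 0.19). Without *otu5* control replicate 2 the first was -0.33 (adjusted p = 0.17). The low Pi difference was -0.35 in WT (95% interval -0.74 to 0.03, adjusted p = 0.30) and -0.19 in *otu5* (95% interval -0.57 to 0.20, adjusted p = 0.56). The *otu5* value ranged from -0.41 to -0.03 with 1 library left out, and passed with estimated library weights (adjusted p = 0.023).

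IAA1 and IAA2, classic early genes of the auxin response, passed in none of the comparisons. IAA1 ranged from 16.6 to 25.2 RPKM over the 12 libraries, and its largest log2 difference was 0.28, for *otu5* against WT on control medium (95% interval -0.04 to 0.59, adjusted p = 0.25). The ranges did not overlap there, at 16.6 to 20.8 RPKM in WT and 21.1 to 23.9 RPKM in *otu5*. IAA2 ranged from 164 to 225 RPKM, and all 4 pairs of groups overlapped. Its log2 differences lay between -0.07 and -0.06, and the 95% intervals reached at most from -0.31 to 0.18. With estimated library weights IAA1 passed for *otu5* against WT on control medium (adjusted p = 0.046) and for low Pi in *otu5* (adjusted p = 0.012).

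The 29 Aux/IAA genes together summed to 1772 to 1879 RPKM in WT control, 1625 to 1733 in WT low Pi, 1687 to 1783 in *otu5* control and 1582 to 1600 in *otu5* low Pi. The *otu5* low Pi sums were thus the lowest of the 4 groups, by a modest margin. The 8 GH3 genes summed to 122 to 138 RPKM in WT control, 109 to 126 in WT low Pi, 140 to 145 in *otu5* control and 134 to 145 in *otu5* low Pi. GH3.17, which was called in no comparison, made up 59.8 to 66.4% of the sum of group means.

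ARF7 and ARF19, the activating factors that together drive lateral root initiation, were the steadiest of the members. ARF7 ranged only from 19.9 to 22.9 RPKM over the 12 libraries, its highest value being 1.15 times its lowest, the smallest such ratio of the 10 genes. Its log2 differences lay between -0.07 and 0.04, with 95% intervals within -0.18 to 0.15 in the 4 pairwise comparisons. ARF19, which is known to act in root hair elongation under low Pi, was at 13.4, 12.4 and 13.2 RPKM in WT control and 13.4, 12.2 and 12.2 RPKM in WT low Pi. In *otu5* it was at 14.5, 14.8 and 14.7 RPKM on control medium and 11.6, 12.5 and 13.9 RPKM on low Pi. The *otu5* control libraries were above all 9 others, and the remaining 3 groups overlapped.

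For ARF19 the log2 difference of *otu5* from WT on control medium was 0.17 (95% interval 0.02 to 0.32, adjusted p = 0.14), and that of low Pi from control in *otu5* was -0.21 (95% interval -0.36 to -0.06, adjusted p = 0.088). The second passed without *otu5* low Pi replicate 3 (-0.27, adjusted p = 0.025) and both passed with estimated library weights (adjusted p = 0.032 and 0.0014). SHY2, ARF7 and ARF19 each overlap another annotated locus, AT1G04230, AT5G20720 and AT1G19210 in that order, and the sources used here do not say whether counting used strand. AT1G04230 lay at 14.9 to 17.5 RPKM. AT5G20720, at 175 to 224 RPKM, was far above ARF7, and AT1G19210 varied from 4.50 to 40.3 RPKM over the libraries. AT5G20720 was lower in *otu5* low Pi than in *otu5* control (-0.18, limma adjusted p = 0.033) and WT low Pi (-0.21, adjusted p = 0.015). AT1G04230 and AT1G19210 were called in no comparison. The part of these loci in the member values was not tested.

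Low Pi responses of the 2 genotypes were compared through the interaction term. It was not called for any of the 10 members, while 1 of the 20411 genes was called (0.00490%). That gene was PAL4 (AT3G10340), a member of the phenylpropanoid pathway chosen after its value was seen. At an unadjusted p under 0.05 there was 1 member, IAA19, where 5.47% of all genes reached it. The IAA19 interaction was -0.60 (SE 0.18, 95% interval -1.0 to -0.20, unadjusted p = 0.0073, limma adjusted p = 0.64), so its fall in *otu5* is not shown to differ from its course in WT after adjustment. For the other 9 members the interaction lay between -0.29 and 0.16. The 95% interval was narrowest for ARF7 (-0.12 to 0.19) and widest for GH3.3 (-0.84 to 0.34).

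For low Pi in WT 0 of the 10 members were called in limma, and 0 had an unadjusted p under 0.05, a level that 20.0% of all genes reached. With the WT libraries paired by replicate number, a pairing that is not established, the count was also 0. The members nearest to the threshold were SHY2, IAA14 and GH3.3, with adjusted p values of 0.30, 0.31 and 0.34. GH3.3 was the member with the largest rise in mean, to 147% of the WT control mean, but its ranges, 0.674 to 0.920 and 0.849 to 1.40 RPKM, overlapped.

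**Figure D3:**
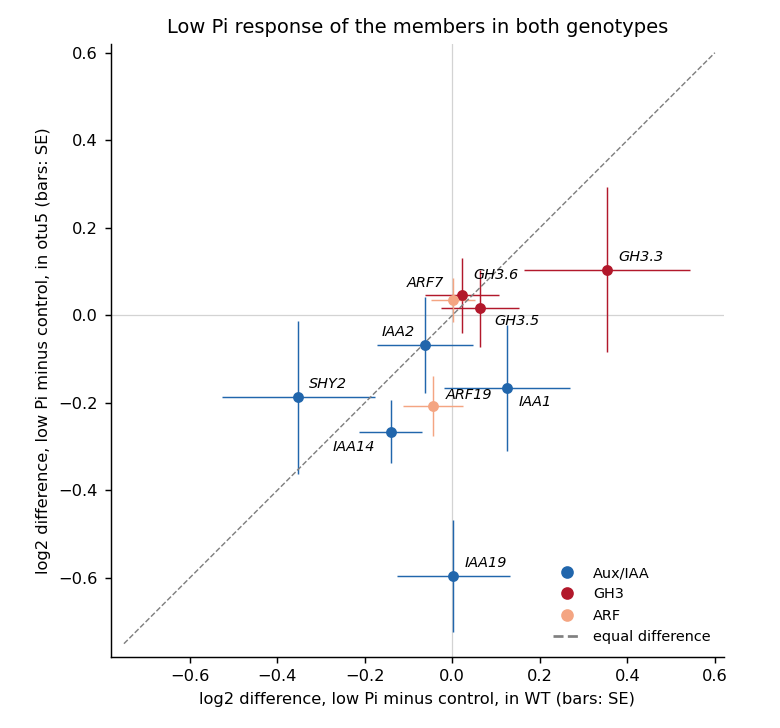
Each point is a member, with the log2 difference of low Pi minus control in WT on the x axis and in otu5 on the y axis; bars are limma standard errors and the dashed line marks equal differences. IAA19 lies at 0.0028 in WT and -0.60 in otu5, and the other members lie nearer to the line.

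Of 74 other auxin genes 64 passed the filter. The 10 that did not were 7 Aux/IAA genes, GH3.4, LBD33 and YUC7, none of which exceeded 1.46 RPKM in any library. For low Pi in WT 1 rose and 2 fell, 4.69% of the 64 against 4.29% of all genes. For low Pi in *otu5* 2 rose and 5 fell (10.9%, against 8.59%). For *otu5* against WT 3 were higher and 4 lower on control medium (10.9%, against 10.4%), and 3 were higher and 7 lower on low Pi (15.6%, against 9.91%). Their median log2 differences were between -0.03 and -0.02 in the 4 comparisons. None passed for the interaction, where 7 had an unadjusted p under 0.05 (5.47% of all genes).

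Of 6 tested auxin synthesis genes 2 fell with low Pi in *otu5*, where 3.78% of all genes were lower. TAR2, an aminotransferase gene of the main auxin synthesis route, went from 13.6 ± 1.14 to 5.90 ± 1.60 RPKM between media in *otu5* (log2 difference -1.17, SE 0.15, limma adjusted p = 0.0024). YUC9, which encodes the next enzyme of that route, fell from 19.0 ± 2.67 to 12.8 ± 0.815 RPKM (-0.55, SE 0.10, adjusted p = 0.011). Both calls held in all 15 alternatives. In limma 0 of the 6 passed for low Pi in WT, 3 having an unadjusted p under 0.05 (20.0% of all genes). TAR2 was also lower on low Pi in WT, at 9.69 ± 0.732 against 13.4 ± 0.245 RPKM, without overlap and without a call. For *otu5* against WT on control medium 0 passed in limma, with 2 at an unadjusted p under 0.05 (26.5% of all genes). On low Pi 2 of 6 were lower in *otu5* than in WT (5.91% of all genes), TAR2 (-0.70, SE 0.15, adjusted p = 0.018) and TAA1 (-0.39, SE 0.10, adjusted p = 0.029). TAR2 lost that call without WT low Pi replicate 1 or 2 (adjusted p = 0.072 and 0.059), and TAA1 without each low Pi library but WT replicate 3 (0.053 to 0.10), and both in a fit of only the low Pi libraries (0.11 and 0.062).

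Lateral root targets of ARF7 and ARF19 were low throughout. Of 4 tested 1 fell with low Pi in *otu5* (3.78% of all genes) and 1 was lower in *otu5* than in WT on low Pi (5.91%). LBD29, a transcription factor gene that both ARFs activate, fell with low Pi in *otu5* from 2.98 ± 0.949 to 1.02 ± 0.0898 RPKM (-1.16, SE 0.23, adjusted p = 0.015). It lost its call without *otu5* control replicate 3 (adjusted p = 0.069). In WT LBD29 was also lower on low Pi, at 1.58 ± 0.394 against 2.54 ± 0.662 RPKM, without overlap and without a call. PUCHI, which acts in shaping the lateral root primordium, was at 2.01 ± 0.72 RPKM in WT low Pi and 0.934 ± 0.249 RPKM in *otu5* low Pi (-0.79, SE 0.21, adjusted p = 0.040). It lost its call when WT replicate 1 (0.077) or 2 (0.12) or *otu5* replicate 1 (0.14) or 3 (0.076) was left out, and in a fit of only these libraries (0.13). In limma 0 of the 4 tested genes of this list passed for low Pi in WT and 0 for *otu5* against WT on control medium, each with 1 at an unadjusted p under 0.05 (20.0% and 26.5% of all genes).

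Of 13 other tested ARF genes limma called 1 higher and 2 lower in *otu5* on control medium (23.1%, against 10.4% of all genes). On low Pi it called 1 higher and 3 lower (30.8%, against 9.91%). For low Pi 1 rose and 1 fell in *otu5* (15.4%, against 8.59%), and 0 were called in WT (4.29% of all genes). ARF5, known as MONOPTEROS and needed for embryonic root formation, was higher in *otu5* on control medium (10.1 ± 0.206 against 12.6 ± 0.697 RPKM, log2 difference 0.31, SE 0.06, adjusted p = 0.014). On low Pi it was at 10.9 ± 0.526 RPKM in WT and 15.8 ± 0.853 RPKM in *otu5* (0.52, SE 0.06, adjusted p = 0.0014), a call that held in all 15 alternatives. It also rose with low Pi in *otu5* (0.32, adjusted p = 0.013). The control call was lost without replicate 3 of WT control or of *otu5* control (adjusted p = 0.054 and 0.060), and the rise was lost without *otu5* low Pi replicate 2 (0.053) and in a fit of only those 6 libraries (0.056).

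ARF9 and ARF11 were lower in *otu5* on both media. ARF11 was at 3.98 ± 0.376 and 2.71 ± 0.384 RPKM on control medium (-0.49, SE 0.13, adjusted p = 0.035) and at 5.66 ± 0.919 and 3.35 ± 0.0894 RPKM on low Pi (-0.67, SE 0.13, adjusted p = 0.0097). ARF9, at 24.9 ± 1.31 RPKM in WT control, had log2 differences of -0.46 (adjusted p = 0.046) and -0.55 (adjusted p = 0.023). ARF18 was lower in *otu5* on low Pi, at 7.04 ± 0.385 against 11.0 ± 1.98 RPKM (-0.59, adjusted p = 0.015). ARF4 fell with low Pi in *otu5* from 19.8 ± 1.86 to 15.8 ± 1.09 RPKM (adjusted p = 0.040). In WT ARF4 was at 21.5 ± 0.432 RPKM on control medium and 19.1 ± 1.63 RPKM on low Pi, without overlap and without a call. The ARF11 call on low Pi held in all 15 alternatives. On control medium ARF9 was not called once any 1 of the 6 libraries was left out (0.054 to 0.14) and ARF11 without each but WT control replicate 1 (0.051 to 0.12). On low Pi ARF9 lost its call without WT replicate 2 or *otu5* replicate 1 or 2 (0.052 to 0.072) and ARF18 without WT replicate 1 or 2 or *otu5* replicate 1 (0.051 to 0.062). ARF4 lost its call without replicate 1 or 3 of *otu5* control or replicate 1 or 2 of *otu5* low Pi (0.11 to 0.15). Fits of only the groups compared also ended the calls of ARF9 (0.11) and ARF18 (0.068) on low Pi, of ARF11 on control medium (0.059) and of ARF4 (0.10).

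Of 17 other tested Aux/IAA genes limma called 1 for low Pi in WT (5.88%, against 4.29% of all genes). For low Pi in *otu5* it called 0, where 8.59% of all genes were called. Between genotypes it called 2 on control medium (11.8%, against 10.4%) and 1 on low Pi (5.88%, against 9.91%). IAA27 fell with low Pi in WT from 88.4 ± 8.05 to 70.7 ± 3.85 RPKM (-0.32, adjusted p = 0.043). In *otu5* IAA27 was at 85.4 ± 5.42 RPKM on control medium and 71.4 ± 3.85 RPKM on low Pi, without overlap and without a call. In *otu5* on control medium IAA4 was lower, at 51.1 ± 4.05 against 65.2 ± 4.29 RPKM (-0.35, adjusted p = 0.014), as was IAA17, which lies next to SHY2 (116 ± 5.17 against 137 ± 0.23 RPKM, adjusted p = 0.046). IAA31 was lower in *otu5* on low Pi, at 2.68 ± 0.399 against 4.32 ± 0.267 RPKM (adjusted p = 0.040). IAA4 lost its call without WT control replicate 3 (0.057), IAA17 and IAA31 without each of their 6 libraries (0.051 to 0.15 and 0.054 to 0.13), and IAA27 without each but WT control replicate 1 (0.070 to 0.12). With a replicate block across the 4 groups IAA27 and AIR1 lost their calls for low Pi in WT (0.066 and 0.055). The block also ended the call of ARF4 for low Pi in *otu5* (0.068). Between genotypes it ended those of ARF11 (0.056) and TPR1 (0.051) on control medium and of IAA31 (0.061) and AIR3 (0.066) on low Pi.

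Of 4 other tested GH3 genes 1, GH3.9, was higher in *otu5* on control medium (4.85% of all genes) and on low Pi (4.00%). GH3.9 stayed under 1 RPKM in every WT library, so it passed the filter only through the *otu5* libraries, where it was higher. It was at 0.854 ± 0.0849 RPKM in WT control and 2.12 ± 0.199 RPKM in *otu5* control (0.95, SE 0.18, adjusted p = 0.011). On low Pi it was at 0.702 ± 0.194 and 1.56 ± 0.469 RPKM (0.77, SE 0.18, adjusted p = 0.024). The first call was lost without *otu5* control replicate 3 (0.052) and the second without WT low Pi replicate 1 (0.091), *otu5* low Pi replicate 1 or 3 (0.051 and 0.060) and in a fit of only the low Pi libraries (0.11). Of 6 auxin receptor genes 0 passed in limma in any comparison, and at an unadjusted p under 0.05 there was 1, for low Pi in *otu5* (24.7% of all genes). Of 5 TOPLESS co-repressor genes 1 was higher in *otu5* on control medium (4.85% of all genes). That gene was TPR1 (32.5 ± 0.302 and 36.0 ± 0.192 RPKM, adjusted p = 0.030), a call lost without each of the 6 libraries (0.056 to 0.094). A list of 5 genes, the loci AT1G14130 and AT1G14120 with 3 hydrolases that free auxin from its conjugates, gave 0 calls in limma. At an unadjusted p under 0.05 it had 2 for low Pi in WT (20.0% of all genes) and 3 for low Pi in *otu5* (24.7%). For *otu5* against WT it had 0 on control medium (26.5%) and 1 on low Pi (26.2%).

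Among 4 genes named for auxin induction in root cultures, AIR1 fell and AIR3 rose with low Pi in both genotypes. Over all genes 4.29% were called for low Pi in WT and 8.59% in *otu5*. AIR3, a subtilisin-like protease gene, went from 17.0 ± 2.94 to 26.5 ± 0.749 RPKM in WT (0.64, SE 0.12, adjusted p = 0.016) and from 18.9 ± 1.71 to 36.6 ± 4.48 RPKM in *otu5* (0.93, SE 0.12, adjusted p = 0.0022). On low Pi it was higher in *otu5* than in WT (0.45, adjusted p = 0.038). AIR1 in WT went from 897 ± 400 to 303 ± 31.1 RPKM (-1.45, adjusted p = 0.043). In *otu5* it went from 721 ± 60.4 to 151 ± 55.6 RPKM (-2.31, adjusted p = 0.0046). In *otu5* the calls of AIR1 and AIR3 for low Pi held in all 15 alternatives. In WT AIR1 lost its call without each library but WT control replicate 1 (0.097 to 0.15), and AIR3 without replicate 3 of WT control or replicates 2 and 3, taken singly, of WT low Pi (0.050 to 0.071). The higher AIR3 level of *otu5* on low Pi was lost without each library but *otu5* low Pi replicate 3 (0.058 to 0.11). In fits of only the groups compared AIR1 in WT (0.080) and that AIR3 difference (0.056) were not called, nor were IAA27 (0.081), IAA31 (0.061) and TPR1 (0.079).

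**Figure D4:**
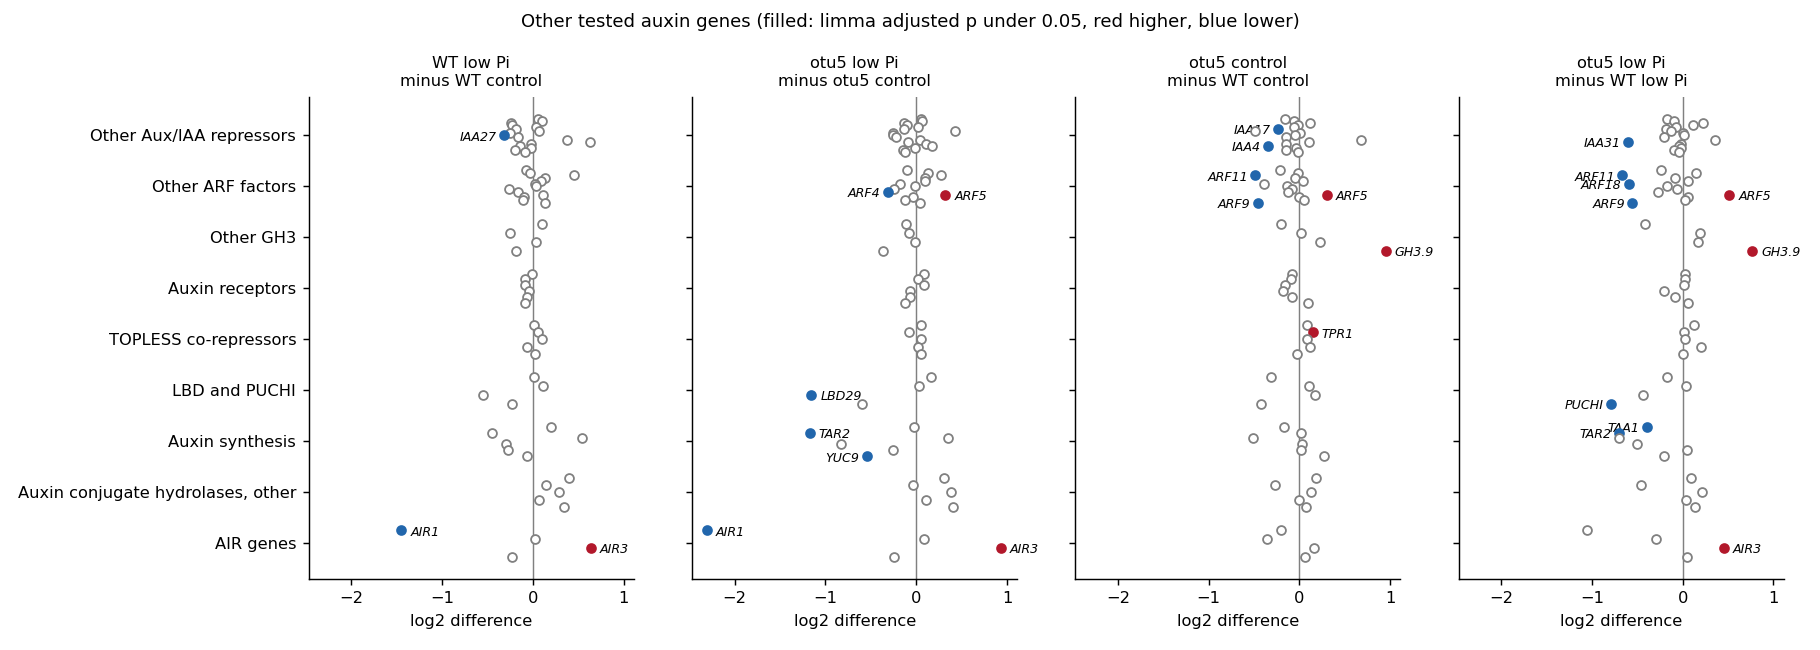
Points are the 64 other tested auxin genes, in rows by list, with the log2 difference on the x axis for 4 comparisons; filled points had a limma adjusted p under 0.05 (red higher, blue lower). The called genes farthest to the left for low Pi in otu5 are AIR1, TAR2 and LBD29, for low Pi in WT AIR1 lies at -1.45, and GH3.9 and ARF5 lie to the right in both comparisons of otu5 with WT.

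Over the 12 libraries the 3 GH3 members varied together, with Pearson's r of log2(RPKM + 0.5) of 0.90 for GH3.5 with GH3.6, 0.86 for GH3.3 with GH3.6 and 0.66 for GH3.3 with GH3.5. SHY2 and IAA19 had r = 0.71, while IAA19 with GH3.6 had r = -0.61. These values are descriptions over 12 libraries that share group differences. The genes most like the most abundant member of each family were also listed. They were picked for the highest r among all 20411 genes tested, over only 12 libraries. Their r values are thus high by selection and were not tested. For ARF7 they were AT2G28320, ATG2 and NADK1 (r = 0.94, 0.93 and 0.92), for GH3.5 AT3G56891, AT2G04620 and PIP (0.92, 0.92 and 0.91), and for IAA2 AT5G44010, SBT4.12 and AT3G05760 (0.90, 0.86 and 0.84).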

How the data were processed

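Polyadenylated RNA was sequenced with 100-bp reads, per the labels. Of the 36 samples in the series the 12 RNA samples were used, while 8 methylation and 16 chromatin samples were not analysed here. Expression values are RPKM as deposited by the authors, 1 column per library. The submitters' processing notes name TopHat2 2.0.4, Cuffdiff and the TAIR10 build without saying what each was used for. The scaling between libraries is unstated, and without read counts absolute depth is unknown, so no counting interval is given. A pseudocount of 0.5 RPKM was added before taking log2. Genes that reached 1 RPKM in 3 or more libraries were fitted with limma 3.58.1 (R 4.3.3), which tested 20411 and left out 13146. The model held 4 group means, with 8 residual degrees of freedom and trended, robust empirical Bayes moderation. P-values were adjusted over every gene tested, by the Benjamini-Hochberg method, and called below 0.05. The procedure was tested on simulated data whose noise was drawn independently for each gene and library. Such data leave out deviations that genes of a library share. Gene names come from RefSeq's TAIR10.1 table, which matched 32810 (97.8%) of the identifiers, and no coordinates are given.

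Named genes are the 10 members, OTU5, up to 4 called genes per list and comparison among other auxin genes, and the 3 genes most like the most abundant member of each family. PAL4 lies outside this rule. Members and lists were chosen with earlier results of these data known. Same-numbered WT libraries deviated together across genes (r = 0.20, 0.26 and 0.11), so the WT comparison was also fitted in pairs, an alternative added after seeing the data. In each other comparison at least 1 correlation of same-numbered libraries was below 0. WT low Pi replicate 1 and *otu5* low Pi replicate 3, which differ in number, had r = 0.25. Values of this size do not by themselves establish pairing. Further alternatives varied the pseudocount, filter, scaling, moderation, library weights, libraries fitted and libraries left out.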

Additional observations from a re-analysis of the deposited data

How the results depend on the processing

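The 0 members called for low Pi in WT and the 0 for the interaction held under every alternative run. The 2 members called between genotypes on low Pi, IAA19 and GH3.6, remained 2 without any 1 library and became 1 in a fit of only the groups compared. For low Pi in *otu5* the 2 calls became 1 with no filter, 1 without trend and robust estimation, 5 with estimated library weights, 0 in a fit of only the groups compared and 0 to 2 with 1 library left out. For *otu5* against WT on control medium the 2 calls became 1 with quantile normalization and 5 with estimated library weights. They became 3 in a fit of only the groups compared and 0 to 1 with 1 library left out.

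Counts over all genes also moved. With estimated library weights they were 2005 for low Pi in WT (875 in the fit reported), 7631 for low Pi in *otu5* (1754), 6795 for *otu5* against WT on control medium (2117), 4382 on low Pi (2023) and 147 for the interaction (1). In fits of only the groups compared they were 855 for low Pi in *otu5* and 502 for the genotypes on low Pi. The interaction count was 2 with no filter, 2 without trend and robust estimation and 0 with a replicate block. With 1 library left out the counts were 242 to 602, 503 to 2494, 702 to 1613, 830 to 2251 and, for the interaction, 0 to 17. The lowest came without WT control replicate 3, *otu5* control replicate 3, *otu5* control replicate 3 and *otu5* low Pi replicate 1, in the order given.

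The replicate block gave 735, 1473, 1887 and 1798 genes in the 4 pairwise comparisons and changed no member's call, and pairing only the WT libraries gave 946 genes and 0 members. Libraries of the other comparisons share only a number.

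Of 810 member values under alternatives 727 kept their direction and side of the threshold, 22 lost and 8 gained a call, and 53 changed sign, all of them values not called in the fit reported. The causes were not tested. For low Pi in WT IAA19 was -0.0071 with quantile normalization, -0.0062 with upper quartile scaling and -0.023 with weights, and ARF7 was -0.010 and -0.0068 with those scalings. For low Pi in *otu5* weights gave 0.11 for IAA2 and -0.051 for GH3.5. Between genotypes on low Pi IAA2 was 0.0024 with quantile normalization and 0.070 with weights, and ARF19 was -0.0038 and -0.061. For the interaction IAA2 was 0.024, 0.00099 and 0.23 with quantile normalization, upper quartile scaling and weights, and weights gave -0.13 for SHY2 and -0.0065 for GH3.6.

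With 1 library left out, log2 differences for low Pi in WT ranged from -0.15 to 0.028 for IAA2, -0.081 to 0.063 for IAA19, -0.0085 to 0.11 for GH3.5, -0.023 to 0.058 for GH3.6 and -0.026 to 0.034 for ARF7. Those for low Pi in *otu5* ranged from -0.17 to 0.032 for IAA2, -0.073 to 0.27 for GH3.3, -0.056 to 0.10 for GH3.5 and -0.061 to 0.10 for GH3.6. On control medium the genotype difference of IAA14 was -0.020 to 0.10. On low Pi it was -0.17 to 0.12 for IAA1, -0.18 to 0.030 for IAA2 and -0.058 to 0.064 for ARF19. The interaction was -0.11 to 0.094 for IAA2, -0.054 to 0.32 for SHY2, -0.12 to 0.038 for GH3.5 and -0.084 to 0.081 for GH3.6.

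Depth, the sharing of reads between related genes, and 3 libraries per group limit these values, and intervals near 0 leave small differences undetectable.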
